A study of Mus musculus with 30 samples.

Results

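Interferon-stimulated genes of mouse liver are described here across 5 groups of mice that differed in their history of diet-induced obesity. The set is a list of 39 genes, taken by symbol, of which 36 had an array probe set that carries their symbol and no other, out of 22180 genes measured in this way. A gene with several such probe sets was read from the probe set with the highest mean over all livers. Of the remaining members, *Gbp2* shares its probe set with *Gbp2b* and *Trex1* with *Atrip*, and *Ifi44* was not named by the array annotation used here.

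Each group held 6 mice, and the RNA of the 30 livers was read on 1 array each (Affymetrix Mouse Gene 2.0 ST). All mice were wild-type C57BL/6J males aged 35 weeks. Lean mice had received control diet only, whereas obese mice were kept for 27 weeks on a diet rich in fat and sucrose (HFD). Formerly obese mice had been fed HFD for 20 weeks and then control diet for 7 weeks. Lean-HFD and formerly obese-HFD mice had the same histories as lean and formerly obese mice, followed by 48 h of free access to HFD. The samples are whole liver, so a smaller number of cells of a type and less RNA per cell cannot be told apart.

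Type I interferons are secreted when cells sense foreign or misplaced nucleic acid, and bind a receptor found on nearly all cells. The receptor's kinases activate STAT2, which joins a complex with IRF9 at the interferon-stimulated response element (ISRE) in the promoters of many such genes. Their products degrade viral RNA, block its translation, sense nucleic acid or shut the response down again. Interferon gamma acts through another receptor and a different promoter element, the gamma-activated site (GAS), and many genes answer to both. In liver, hepatocytes, Kupffer cells and sinusoidal endothelial cells can all express these genes.

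The promoter stretches that follow show how the response element is written in 5 members, *Ifi205*, *Oas1g* and *Bst2*, which passed the criteria described later in at least 1 comparison, and *Ifit1* and *Isg15*, which are widely used readouts of type I interferon. Each holds 80 bases of the reference promoter (RefSeq, build GRCm38.p6), read 5′ to 3′ on the gene's strand, with capitals marking the ISRE core GAAANNGAAA or its other-strand form TTTCNNTTTC. The *Ifi205* stretch is chr1:174031845-174031924 on the minus strand and ends 90 bases before the annotated start. That of *Oas1g* is chr5:120887614-120887693 on the minus strand and ends 1 base before the start, and that of *Bst2* is chr8:71537555-71537634 on the minus strand, ending 83 bases before it. *Ifit1* is shown at chr19:34640759-34640838 on the plus strand to 51 bases before the start, and *Isg15* at chr4:156200846-156200925 on the minus strand to 28 bases before it. The stretch of *Ifi205* holds 1 match, and those of *Oas1g*, *Ifit1* and *Bst2* hold 2 each. The 3 matches of *Isg15* overlap in a single run, as do both matches of *Oas1g* and of *Bst2*, whereas those of *Ifit1* are separate and lie on the other strand.
Ifi205: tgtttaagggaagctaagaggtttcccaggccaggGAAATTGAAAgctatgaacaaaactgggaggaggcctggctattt
Oas1g: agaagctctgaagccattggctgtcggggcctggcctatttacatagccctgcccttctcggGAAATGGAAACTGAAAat
Bst2: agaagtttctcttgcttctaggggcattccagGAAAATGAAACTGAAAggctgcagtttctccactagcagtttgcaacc
Ifit1: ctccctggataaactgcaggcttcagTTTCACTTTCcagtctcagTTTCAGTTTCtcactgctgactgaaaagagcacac
Isg15: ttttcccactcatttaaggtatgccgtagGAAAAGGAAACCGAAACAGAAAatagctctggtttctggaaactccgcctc

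Of the 39 members, 28 had a promoter in the reference table, given as the 250 bases before and 50 bases after the annotated start. The ISRE core, searched on both strands, was present in 13 of these 28 (46.4%), compared with 1079 of 27025 genes in the whole table (3.99%, or 3.44% of 32851 promoters of the same length). *Ifi205*, *Ifih1*, *Gbp2*, *Gbp3*, *Isg15*, *Oas1g*, *Oas3*, *Bst2*, *Stat2*, *Rsad2*, *Eif2ak2*, *Ifit1* and *Ifit3* held it. The GAS core TTCNNNGAA, which reads the same on both strands, was present in 7 members (25%) and in 9.55% of all genes, and in *Bst2* it overlapped the first ISRE match, from -136 to -128. Other genes induced by type I interferon held the ISRE core in 22 of 43 genes with a promoter (51.2%), those induced by interferon gamma in 10 of 21 (47.6%), and interferon receptors and JAK-STAT genes in 1 of 14 (7.14%). These counts describe the members and took no account of the array values.

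**Figure D1:**
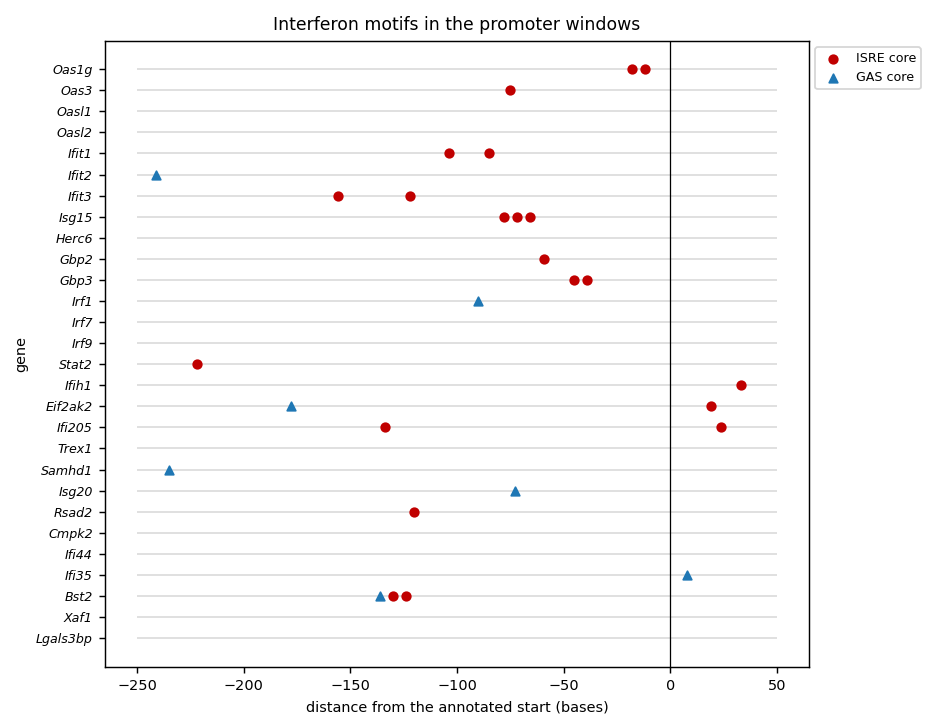
Positions of the ISRE core (circles) and GAS core (triangles) in the promoters of the 28 members in the reference table, where the x axis gives the distance in bases from the annotated start (0) and each grey line covers the window searched for that gene. Genes with a bare line held neither motif, and all ISRE matches but that of *Stat2* at -222 begin within the 156 bases before the start or lie after it.

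The values are log2 signals normalised by RMA, a method that brings all arrays to the same distribution and gives 1 value per probe set. All 10 hepatocyte markers had a linear average above 8 in every group. Neutrophil markers were near the lower end of the scale, with 6 or 7 of 10 averaging below 8 in each group. Arrays correlated with each other at *r* of 0.962 to 0.983. Of the 36 measured members, 35 had an average above 8 in each of the 5 groups, and *Mx1* had none, with a highest average of 5.95. Signals of different probe sets are not comparable as levels, so values are compared between livers for the same probe set, or for the same sum of probe sets, and not between genes. The labels do not give litters, cages or array batches, and the number of livers limits the precision.

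The criteria are those the study used for liver. To pass, a gene needed a limma *P* under 0.01 and a ratio between both linear averages above 1.2, whichever group was higher, and at least 1 of the averages had to exceed 8. Shares over all probe sets include those below that average, which cannot pass, whereas 35 of 36 members exceeded it. Each pair of groups was fitted on its own 12 livers over 41345 probe sets, and a false discovery rate (FDR) of 10% was taken separately over all of them. Differences are log2 differences of group means with their SE and 6 livers per group. For single genes a two-sided exact permutation *P* over the 924 arrangements of 12 livers is also given, the smallest possible being 0.00216. No member reached the FDR in any of 7 comparisons, with a smallest adjusted limma *P* of 0.356 for *Ifi27* and *P* values under 0.05 without adjustment in up to 7 members per comparison, as given next. The FDR, with the same ratio and average required, was reached by 0.0895% of all probe sets in obese vs lean, 0.189% in formerly obese vs obese, 0.00726% in lean-HFD vs lean and 0.0242% in formerly obese-HFD vs formerly obese livers, and by 0% in the other 3 comparisons.

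In obese vs lean livers no member passed the criteria, which 2.01% of all probe sets did. *Ifi27*, which encodes a small interferon-induced membrane protein, lay lower by 0.29 in obese livers, with an unadjusted *P* of 0.0107 that missed the threshold. *Ifi35* and *Ifih1* lay higher by 0.23 and 0.20, and these 3 were the members with *P* under 0.05, a level reached by 8.37% of all genes. The median difference over the 36 members was 0.11, with 30 of 36 above 0, compared with a median of 0.00 and 50.3% above 0 over all genes, and the members' median was 0.17 without obese replicate 4. Stellate cell markers lay higher in the same livers, with 7 of 10 above 0, a median of 0.26 and 2 past the criteria, and their part was not tested. *Ifi27* passed the criteria with an intensity trend and robust prior, with lean replicate 1 left out or with obese replicate 1 left out.

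In formerly obese vs lean livers *Ifi205*, *Oas1g* and *Cmpk2* were higher, 3 of 36 members (8.33%) compared with 0.905% of all probe sets and 0.735% of all genes. The first encodes a DNA-binding protein of the IFI200 family, *Oas1g* an enzyme that makes the signal for RNA cleavage, and *Cmpk2* a mitochondrial nucleotide kinase. *Oas2*, *Herc6*, *Samhd1* and *Parp14* were the other members with *P* under 0.05, all on the higher side, a level that 5.23% of all genes reached in either direction. The median over the members was 0.20, or 0.12 without formerly obese replicate 5, and 34 of 36 lay above 0, compared with 49.4% of all genes. Kupffer cell and macrophage markers moved in the same livers, with 14 of 14 above 0, a median of 0.47 and 6 past the criteria. Their summed linear signal was 1130 to 2050 in formerly obese and 891 to 1340 in lean livers, with no marker averaging below 8, and their part in the members' differences was not tested. Of the sinusoidal endothelial markers 8 of 10 lay above 0, with a median of 0.12 and 2 past the criteria. Without formerly obese replicate 2, the lowest of its group for 11 members, 7 members passed: *Oas1g*, *Oas2*, *Oas3*, *Ifit2*, *Ifi205*, *Cmpk2* and *Parp14*.

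In formerly obese vs obese livers *Ifi27* and *Bst2* were higher, 2 of 36 members (5.56%) compared with 2.17% of all probe sets and 2.74% of all 22180 genes. Of these genes 607 passed, while 14562 had an average above 8, which a call requires. The share among genes that could pass is therefore above 2.74% and nearer to that of the members. *Ifi27* and *Bst2* both had their lowest group mean in obese livers. *Oas1g*, *Irf7*, *Ifi205* and *Parp14* also had *P* under 0.05, all on the higher side, compared with 9.76% of all genes in either direction. The median over the members was 0.09, with 27 of 36 above 0, compared with 47.9% of all genes. That median was 0.03 without formerly obese replicate 1 or 5, 0.05 without obese replicate 4 and 0.15 without formerly obese replicate 2. Kupffer cell and macrophage markers lay higher here as well, with 14 of 14 above 0, a median of 0.33 and 2 past the criteria, and their part was not tested. The count was 0 without formerly obese replicate 1, 4 or 5 or without obese replicate 4 or 6, and 1 without formerly obese replicate 3 or obese replicate 2, 3 or 5.

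After 48 h of HFD in lean mice, *Mx2*, a GTPase of the interferon-induced dynamin-like family, was higher, as the single member past the criteria compared with 1.29% of all probe sets. *Ifit1*, *Ifih1*, *Zbp1*, *Ifi35*, *Xaf1* and *Parp14* had *P* under 0.05 on the same side, compared with 6.78% of all genes in either direction. The median over the members was 0.20, with 34 of 36 above 0, compared with 50.3% of all genes. This comparison shares its lean livers with the 2 comparisons with lean described before it, so like values among them are not independent. Sinusoidal endothelial markers lay lower in the same livers, with 0 of 10 above 0, a median of -0.22, 3 with *P* under 0.05 and 1, *Oit3*, past the criteria, and their part in the members' differences was not tested. Their summed linear signal was 820 to 1310 in lean-HFD and 1070 to 1490 in lean livers. Macrophage markers had 5 of 14 above 0, a median of -0.08 and 0 past the criteria. The count went to 6 without lean-HFD replicate 6 (*Oas1g*, *Ifit1*, *Mx2*, *Ifih1*, *Xaf1* and *Parp14*), to 3 without lean replicate 2 or lean-HFD replicate 3, to 2 without lean-HFD replicate 2, and to 0 without lean replicate 1, 3, 4 or 5 or lean-HFD replicate 4 or 5.

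In formerly obese mice the same 48 h of HFD left *Ifih1*, an RNA sensor, as the single member past the criteria, where 1.18% of all probe sets passed. *Zbp1* and *Dhx58*, also sensors, had *P* under 0.05 on the higher side, compared with 5.84% of all genes in either direction. The median over the members was 0.05 with 25 of 36 above 0, compared with 52% of all genes, and the members' median was -0.01 without formerly obese-HFD replicate 6. Kupffer cell and macrophage markers had 0 of 14 above 0, with a median of -0.15 and 1 past the criteria, and sinusoidal endothelial markers had 1 of 10 above 0, with a median of -0.17 and 1 past the criteria. Set against refed lean mice, *Ifi205* was higher in formerly obese-HFD livers, and no other member had *P* under 0.05, where 0.914% of all probe sets passed the criteria and 4.98% of all genes had *P* under 0.05. The median there was 0.09 with 23 of 36 above 0, compared with 49.7% of all genes, and -0.05 without formerly obese-HFD replicate 6. The difference between both refeeding effects, tested as an interaction on 24 livers, passed for 0 members (0.716% of all probe sets), with 0 at *P* under 0.05 (4.67% of all genes), a median of -0.12 and 7 of 36 above 0 (50.2% of all genes). With counts of 0 or 1, obese vs lean and the last 4 comparisons do not set the members apart from all probe sets by this count. Whether the counts of 3 and 2 in the other comparisons do was not tested. By median and direction, lean-HFD vs lean matched formerly obese vs lean, with 0.20 and 34 of 36 above 0 in each.

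**Figure D2:**
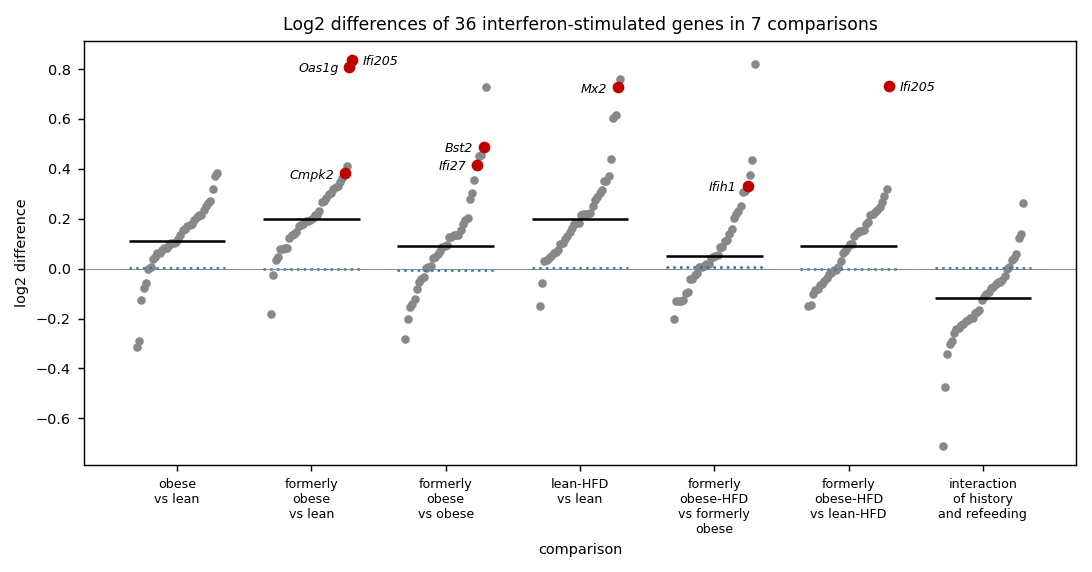
Log2 differences (y axis) of the 36 measured members in each of 7 comparisons (x axis), 1 point per gene in rising order. Red points with names passed the criteria, the black bar is the median of the members and the dotted blue bar that of all 22180 genes, and the members' medians lie at 0.20 in both formerly obese vs lean and lean-HFD vs lean.

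Few ligands and upstream genes passed the criteria, but counts of 0 or 1 in lists this short do not set them apart from all probe sets. Of 19 measured interferon genes, 8 to 10 had an average above 8 in a given comparison, and the others could not pass. *Ifna15* passed, in formerly obese-HFD vs formerly obese livers (log2 difference 0.58, SE 0.180, limma *P*=0.00693, adjusted *P*=0.665, exact permutation *P*=0.0152). Its values were 3.42 to 4.30 in formerly obese livers and 4.06 to 5.02 in formerly obese-HFD livers, and it lost the criteria when formerly obese replicate 2, 3 or 4 or formerly obese-HFD replicate 2, 3, 4 or 5 was left out, with *P* at most 0.0179. *Ifnb1*, the main early type I interferon, and *Ifng*, which encodes interferon gamma, never reached a linear average of 8, with highest averages of 5.53 and 6.39.

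*Ifnar1*, a subunit of the type I interferon receptor, differed by -0.01 to 0.04 in the 6 pairwise comparisons (SE at most 0.0969). *Ifngr2*, a subunit of the interferon gamma receptor, was 6.73 to 7.14 in obese and 6.43 to 6.76 in lean livers, a higher signal with obesity (log2 difference 0.36, SE 0.101, limma *P*=0.00338, exact permutation *P*=0.00649). It was the only gene past the criteria among 15 measured receptor and JAK-STAT genes in any of the 7 comparisons. *Irf3*, the factor that starts interferon transcription after sensing, differed by -0.21 in obese vs lean livers (SE 0.116, exact permutation *P*=0.0909) and by less elsewhere. None of the 17 measured genes of nucleic acid sensing upstream of interferon passed in any of the 7 comparisons.

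Of the transcription factors that carry the response, *Irf7* is itself interferon-induced and amplifies type I interferon production. Its log2 signal was 5.55 to 6.06 in obese livers with a median of 5.74, 5.79 to 6.86 in formerly obese livers with a median of 6.21, and 5.64 to 6.26 in lean livers with a median of 5.82. All 6 formerly obese livers lay above the obese mean and 3 above the highest obese liver. The difference between formerly obese and obese livers was 0.46 (SE 0.166, limma *P*=0.0167, exact permutation *P*=0.0303), which missed the criteria but met them without formerly obese replicate 2 or 6. *Irf9* and *Stat2*, the DNA-binding and activating subunits of the complex at the ISRE, differed from lean by 0.28 (SE 0.221) and 0.14 (SE 0.144) in formerly obese livers and had no *P* under 0.05 in any comparison. *Irf1*, which answers mainly to interferon gamma, differed by at most 0.22 in any pairwise comparison (SE 0.177).

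Among the sensors of double-stranded RNA, *Ifih1* encodes a helicase that recognises long viral RNA. It was 7.00 to 7.35 in lean livers with a median of 7.18, and 7.25 to 7.70 in lean-HFD livers with a median of 7.47. In formerly obese livers it was 7.08 to 7.38 with a median of 7.30, and in formerly obese-HFD livers 7.35 to 7.99 with a median of 7.58. Of the refed livers, 5 of 6 with a history of obesity lay above all formerly obese livers and 4 of 6 without it above all lean livers.

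*Ifih1* differed by 0.33 with refeeding in formerly obese mice (SE 0.105, limma *P*=0.0075, adjusted *P*=0.665, exact permutation *P*=0.00649). In lean mice it differed by 0.29 (SE 0.0998, limma *P*=0.013, exact permutation *P*=0.013), outside the criteria, which it met without lean replicate 2 or lean-HFD replicate 1 or 6. These estimates come from separate sets of livers, and the interaction was 0.04 (SE 0.141, limma adjusted *P*=0.991). The call in formerly obese mice was lost without formerly obese replicate 2, 4 or 5 or formerly obese-HFD replicate 1, 3, 4 or 6 (*P* at most 0.0194) and with median-centred arrays. *Dhx58*, a regulator of such helicases, was 4.02 to 4.77 in formerly obese and 4.54 to 5.49 in formerly obese-HFD livers, a difference of 0.44 (SE 0.178, limma *P*=0.0289, exact permutation *P*=0.0433). *Eif2ak2*, the RNA-dependent kinase that halts translation, differed by at most 0.22 in any pairwise comparison (SE 0.123).

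*Ifi205* was the member with the clearest group difference. Its log2 signal was 2.93 to 3.84 in lean livers with a median of 3.56, and 4.04 to 4.83 in formerly obese livers with a median of 4.20. Obese livers lay between them, at 3.50 to 4.44 with a median of 3.81. Lean and formerly obese livers did not overlap, as for 0.347% of all genes and none of the other 35 measured members. In refed mice, lean-HFD livers were at 3.37 to 3.95 with a median of 3.68 and formerly obese-HFD livers at 3.56 to 5.35 with a median of 4.47. Of the latter, 5 of 6 lay above every lean-HFD liver, and replicate 3 lay within their range.

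The difference of *Ifi205* was 0.84 in formerly obese vs lean (SE 0.173, limma *P*=0.000317, adjusted *P*=0.545, exact permutation *P*=0.00216), 0.45 for formerly obese vs obese (SE 0.181, exact permutation *P*=0.039) and 0.39 in obese vs lean livers (SE 0.187, exact permutation *P*=0.0866). In formerly obese-HFD vs lean-HFD, which shares no livers with the first of these, it was 0.73 (SE 0.238, limma *P*=0.00871, adjusted *P*=0.884, exact permutation *P*=0.0152). The latter call was lost without lean-HFD replicate 1, 2, 3, 4 or 6 or formerly obese-HFD replicate 2, 4, 5 or 6 (*P* at most 0.021). Refeeding itself moved it by 0.22 in lean (SE 0.159) and 0.11 in formerly obese mice (SE 0.248). Its family has near-identical members in a cluster on chromosome 1, and a probe set can read more than its own gene. *Mndal*, a related gene outside the list, was likewise higher after former obesity than in lean mice (log2 difference 0.48, SE 0.144, limma *P*=0.00489, exact permutation *P*=0.0108), losing the criteria without any of formerly obese replicates 4 and 6 and lean replicates 3 and 4 (*P* at most 0.0128) and with all 30 livers in a single fit. The macrophage markers named before were also higher in both comparisons in which *Ifi205* passed, with 12 of 14 above 0 and a median of 0.37 in formerly obese-HFD vs lean-HFD, and their part in it was not tested.

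*Ifi204*, a relative of *Ifi205* that also binds DNA, was 4.42 to 5.69 in lean and 4.80 to 5.82 in formerly obese livers, a difference of 0.41 (SE 0.221, exact permutation *P*=0.128). *Zbp1* encodes a sensor of Z-form nucleic acid that can trigger cell death. It was 5.2 to 6.43 in lean livers with a median of 5.79 and 6.09 to 7.47 in lean-HFD livers with a median of 6.35. In formerly obese livers it was 5.34 to 6.41 with a median of 6.14, and in formerly obese-HFD livers 6.05 to 8.14 with a median of 6.57. Refed livers lay above the mean of their unrefed group in 6 of 6 mice in both histories, and the groups overlapped in both. *Zbp1* differed with refeeding by 0.76 in lean (SE 0.271, limma *P*=0.0145, exact permutation *P*=0.0368) and by 0.82 in formerly obese mice (SE 0.329, limma *P*=0.0269, exact permutation *P*=0.0433), and neither passed the criteria. The spread was wide in refed livers, with an SD of 0.57 and 0.81, since lean-HFD replicates 4 and 5 and formerly obese-HFD replicates 4 and 6 were above 7.

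The oligoadenylate synthetases make a short adenylate chain that switches on RNase L. *Oas1g* was 2.93 to 3.39 in lean livers with a median of 3.26, 2.69 to 3.81 in obese livers with a median of 3.26, and 3.36 to 4.80 in formerly obese livers with a median of 3.84. Of the formerly obese livers, 5 of 6 lay above all lean livers. The difference was 0.81 in formerly obese vs lean (SE 0.223, limma *P*=0.00294, adjusted *P*=0.74, exact permutation *P*=0.00433) and 0.73 in formerly obese vs obese livers (SE 0.271, limma *P*=0.0184, exact permutation *P*=0.0433). It held without each liver in turn against lean (*P* at most 0.00764), but not when all 30 livers shared a single estimate of the spread.

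That spread was far wider after refeeding. In lean-HFD livers *Oas1g* ran from 2.53 to 5.09 (SD 0.85) and in formerly obese-HFD livers from 2.45 to 5.86 (SD 1.39), compared with an SD of 0.20 in lean livers. A probe set that carries both *Oas1a* and *Oas1g* was higher after former obesity than in obese mice (log2 difference 0.52, SE 0.169, limma *P*=0.00868, exact permutation *P*=0.0173). That call was lost without 9 of the 12 livers in turn (*P* at most 0.0222). Against lean livers, where *Oas1g* passed, this shared probe set differed by 0.33 in formerly obese livers and did not pass. Its limma *P* there was 0.0188 to 0.246 when each liver was left out in turn. In obese vs lean livers it differed by -0.19, and the array cannot fully separate these copies. *Oas2* differed by 0.35 in formerly obese vs lean (SE 0.126, limma *P*=0.0159, exact permutation *P*=0.0195), and *Oas3* by 0.20 (SE 0.103). *Oasl1* and *Oasl2*, synthetase-like proteins, differed from lean by -0.03 (SE 0.128) and 0.18 (SE 0.169) in formerly obese livers.

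IFIT proteins bind viral RNA caps and ends. *Ifit1* was 4.61 to 5.27 in lean livers with a median of 4.86 and 4.84 to 6.26 in lean-HFD livers with a median of 5.47, where 4 of 6 lay above all lean livers. Its difference of 0.60 (SE 0.218, limma *P*=0.0159, exact permutation *P*=0.0281) missed the criteria, but met them without lean-HFD replicate 3 or 6 and with gene values averaged over probe sets. *Ifit1* has 1 probe set, so the averaging left its own values unchanged. *Ifit2* differed in the same livers by -0.15 (SE 0.143) and *Ifit3* by 0.03 (SE 0.180), so the family did not move as a block. In formerly obese vs lean livers *Ifit2* and *Ifit3* each differed by 0.30 (SE 0.176 and 0.166), with no *P* under 0.05.

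*Isg15* encodes the ubiquitin-like modifier, *Herc6* its mouse ligase, and *Usp18* the protease that removes it and damps the receptor. *Isg15* was 4.48 to 4.88 in lean, 4.46 to 5.14 in obese and 4.31 to 5.25 in formerly obese livers, with almost full overlap. After refeeding it reached 5.68 in lean-HFD replicate 4 and 6.21 in formerly obese-HFD replicate 6, and its differences of 0.37 (SE 0.189) and 0.38 (SE 0.233) had exact permutation *P* values of 0.108 and 0.175. *Herc6* was 5.90 to 6.44 in lean and 6.16 to 6.74 in formerly obese livers, a difference of 0.27 (SE 0.112, limma *P*=0.0319, exact permutation *P*=0.0368). *Usp18* differed by 0.35 in lean-HFD vs lean (SE 0.271) and by 0.01 in formerly obese-HFD vs formerly obese livers (SE 0.356), within a range of 5.26 to 7.32 over the 30 livers.

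The antiviral GTPases block viral replication in the nucleus or cytoplasm. *Mx2* was 3.71 to 4.71 in lean livers with a median of 4.36 and 4.51 to 5.73 in lean-HFD livers with a median of 4.86, where 6 of 6 lay above the lean mean and 4 of 6 above all lean livers. It differed by 0.73 (SE 0.227, limma *P*=0.0068, adjusted *P*=0.62, exact permutation *P*=0.00866), and lost the criteria without lean replicate 1, 3, 4 or 5 or lean-HFD replicate 1, 4 or 5 (*P* at most 0.0174) or with all 30 livers in a single fit. In formerly obese mice refeeding moved it by 0.25 (SE 0.333), from 3.95 to 5.69 before and 4.25 to 5.70 after. *Mx1* stayed at 2.24 to 2.94 in all 30 livers, below the average needed for a call. *Gbp3*, a guanylate-binding protein, differed by 0.27 in obese vs lean (SE 0.152) and by 0.03 in lean-HFD vs lean livers (SE 0.170).

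*Cmpk2* was 3.72 to 4.30 in lean livers with a median of 4.02 and 4.12 to 4.77 in formerly obese livers with a median of 4.33, where 4 of 6 lay above all lean livers. Its difference was 0.38 (SE 0.124, limma *P*=0.00853, adjusted *P*=0.789, exact permutation *P*=0.013). It was lost when any of lean replicates 1, 3, 4 and 5 or formerly obese replicates 1, 3, 4 and 5 was left out (*P* at most 0.0217), with all 30 livers in a single fit and with an intensity trend and robust prior. *Rsad2*, which encodes viperin, an enzyme that makes a chain-terminating nucleotide, differed by 0.14 in the same comparison (SE 0.180). *Samhd1*, which depletes nucleotides, was 7.19 to 7.56 in lean and 7.50 to 7.77 in formerly obese livers (0.21, SE 0.0822, limma *P*=0.0217, exact permutation *P*=0.0108), and *Isg20*, an RNA exonuclease, differed by 0.19 (SE 0.110).

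*Ifi27* and *Bst2* had the largest of the 6 negative differences among the 36 members in obese vs lean livers, the others being *Irf7*, *Stat2*, *Irf1* and *Ifit2*. *Ifi27* was 9.58 to 10.08 in lean livers with a median of 9.92, 9.48 to 9.79 in obese livers with a median of 9.59, and 9.44 to 10.31 in formerly obese livers with a median of 10.10. All 6 obese livers lay below the lean mean, and 5 of 6 formerly obese livers lay above all obese livers while replicate 2 lay below them. It differed by -0.29 in obese vs lean (SE 0.0982, limma *P*=0.0107, exact permutation *P*=0.0173) and by 0.42 in formerly obese vs obese livers (SE 0.129, limma *P*=0.00671, exact permutation *P*=0.0195). The second of these was lost without formerly obese replicate 1, 3, 4 or 5 or any obese liver but replicate 1 (*P* at most 0.0175).

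*Bst2* encodes tetherin, a membrane anchor that holds budding virus. It was 9.09 to 9.98 in lean livers with a median of 9.39, 8.62 to 9.58 in obese livers with a median of 9.19, and 9.35 to 9.89 in formerly obese livers with a median of 9.64. All 6 formerly obese livers lay above the obese mean and 4 above the highest obese liver. The difference was 0.49 in formerly obese vs obese (SE 0.156, limma *P*=0.00789, adjusted *P*=0.376, exact permutation *P*=0.0152) and -0.31 in obese vs lean livers (SE 0.175, exact permutation *P*=0.134). The former was lost without formerly obese replicate 1, 3, 4 or 5 or obese replicate 4, 5 or 6 (*P* at most 0.0201). Both comparisons share the obese livers.

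*Parp14*, an ADP-ribosyltransferase, differed from lean by 0.36 in formerly obese (SE 0.134, limma *P*=0.0176, exact permutation *P*=0.0216) and by 0.35 in lean-HFD livers (SE 0.145, limma *P*=0.0306, exact permutation *P*=0.026), and by 0.01 in obese livers (SE 0.123). *Xaf1*, a pro-apoptotic factor, differed by 0.44 between lean-HFD and lean mice (SE 0.179, limma *P*=0.0289, exact permutation *P*=0.0519). *Ifi35*, a partner of other interferon-induced proteins, differed from lean by 0.23 in obese (SE 0.0917, limma *P*=0.0235, exact permutation *P*=0.0173) and by 0.22 in lean-HFD livers (SE 0.094, limma *P*=0.037, exact permutation *P*=0.0281). *Parp9*, *Rtp4* and *Lgals3bp* had no *P* under 0.05 in any comparison and differed by at most 0.30, the highest being *Rtp4* in lean-HFD vs lean livers (SE 0.218).

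**Figure D3:**
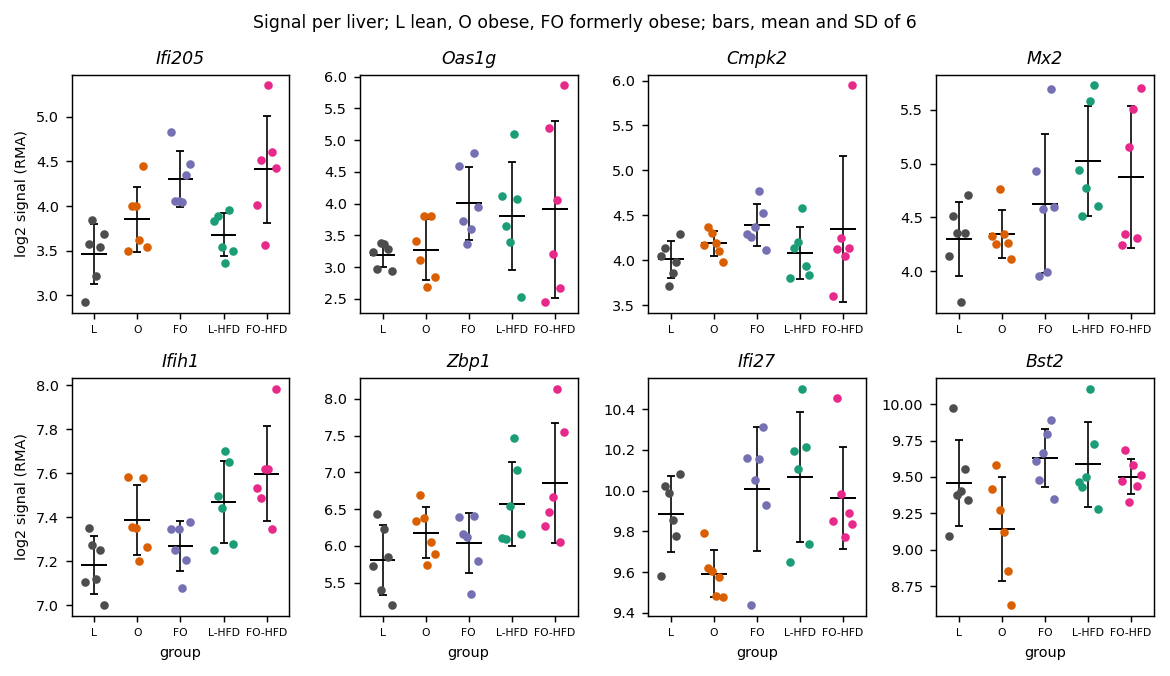
Log2 signal (y axis) of 8 members in each liver, by group (x axis; L, lean; O, obese; FO, formerly obese; with HFD for the refed groups), with black bars for the mean and SD of 6 livers. *Ifi205* in formerly obese livers lies above all lean livers, *Ifi27* and *Bst2* have their lowest mean in obese livers, and *Ifih1* and *Zbp1* have higher means after refeeding in both histories.

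For 2 members a probe set is shared with another gene, so their values may belong to either. *Trex1* encodes an exonuclease that clears cytosolic DNA. The probe set it shares with *Atrip* was 4.10 to 4.76 in lean livers and 4.85 to 5.08 in formerly obese livers. These groups did not overlap, as for 0.347% of all genes. The probe set was higher after former obesity (log2 difference 0.45, SE 0.111, limma *P*=0.00145, adjusted *P*=0.66, exact permutation *P*=0.00216). In formerly obese-HFD livers it was 4.07 to 4.89, lower than in formerly obese livers (log2 difference -0.51, SE 0.130, limma *P*=0.00176, exact permutation *P*=0.00433), while lean-HFD differed from lean by 0.12 (SE 0.141). The difference between both refeeding effects, tested as an interaction, was -0.63 (SE 0.194, limma adjusted *P*=0.88) and passed the criteria. These 3 calls held without each liver in turn, with *P* at most 0.00411, 0.00477 and 0.00765. All 3 use the same formerly obese livers, so they are not independent. Formerly obese-HFD differed from lean-HFD, a comparison without those livers, by -0.19. The probe set of *Gbp2* and *Gbp2b* differed by at most 0.31 in size in any pairwise comparison (SE 0.169) and had no *P* under 0.05.

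The members varied together from animal to animal. For each liver, the deviation of a member is its log2 signal minus the mean of that gene over the 30 livers. The mean deviation over the 36 members was -0.27 to -0.01 in lean livers with a median of -0.21, and -0.25 to 0.12 in obese livers with a median of -0.06. It was -0.17 to 0.33 in formerly obese livers with a median of -0.02, -0.28 to 0.48 in lean-HFD livers with a median of -0.01, and -0.15 to 0.68 in formerly obese-HFD livers with a median of 0.05. All groups overlapped, and each of the other groups reached higher than the highest lean liver. Its SD was 0.099 in lean, 0.152 in obese, 0.206 in formerly obese, 0.272 in lean-HFD and 0.328 in formerly obese-HFD livers.

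The same pattern appeared as a count. In lean livers 3 to 16 of 36 members lay above their own mean over the 30 livers (median 6), in obese 4 to 29 (median 15), in formerly obese 11 to 33 (median 16.5), in lean-HFD 6 to 34 (median 18) and in formerly obese-HFD livers 9 to 32 (median 20). Over all genes this share was 44.5% to 51.5% in every liver. As RMA brings all arrays to the same distribution, that share is largely fixed in advance. It cannot show whether a liver high in the members was high over the array. As the mean is taken over the same 30 livers, high livers lower the count in the others.

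**Figure D4:**
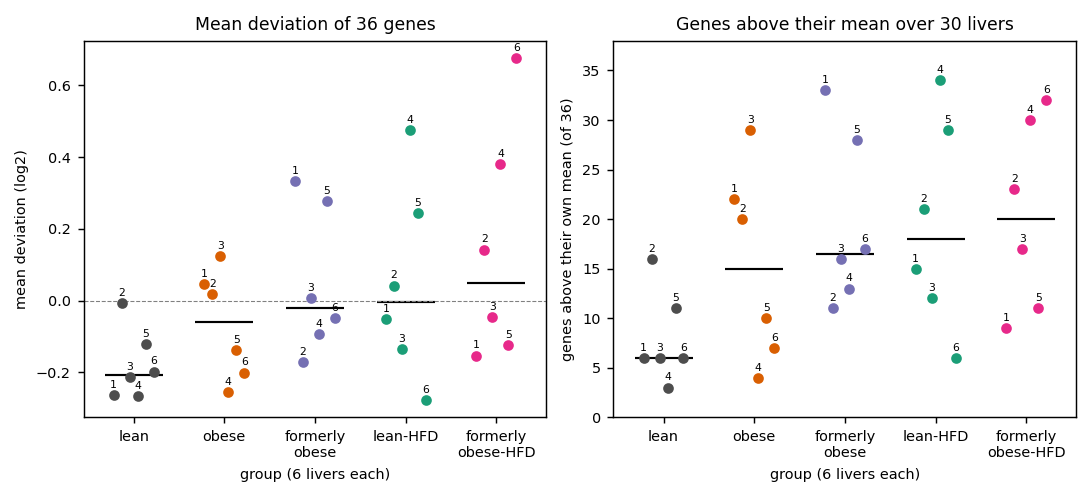
Mean deviation of the 36 members (left y axis, log2) and number of members above their own mean over 30 livers (right panel's y axis, of 36) in each liver, by group (x axis), with the replicate number above each point and a bar at the group median. Formerly obese-HFD replicate 6 lies highest on the left at 0.68, and lean-HFD replicate 4 on the right at 34 members.

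Few livers carried the high end. Formerly obese-HFD replicate 6 had a mean deviation of 0.68 and was the highest of all 30 livers for 15 members, among them *Isg15*, *Ifit1*, *Ifit2*, *Oas1g*, *Oas2*, *Usp18*, *Cmpk2* and *Rsad2*. Lean-HFD replicate 4, at 0.48, had 34 of 36 members above their mean and was the highest of its group for 28 and of all livers for 7. Formerly obese-HFD replicate 4, at 0.38, was the highest of all for 8, among them *Zbp1*, *Ifi204*, *Ifi205*, *Gbp3*, *Stat2* and *Samhd1*. Formerly obese replicate 1 (0.33, 33 of 36 members above their mean) and replicate 5 (0.28, 28 of 36) followed. At the other end, lean-HFD replicate 6 at -0.28 was the lowest of its group for 18 members, so that refed lean mice held both the second highest and the lowest of the 30 livers.

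Across the 630 pairs of members, with the group means removed, the median correlation over 30 livers was 0.413 and 92.1% of pairs were above 0. All gene pairs among 15143 genes past the average had a median of 0.002 with 50.4% above 0. Genes on the same array share its RNA, so these are descriptions and not tests. The members that followed the others most closely were *Usp18* (*r* of 0.879 with the mean of the other members), *Ifit1* (0.864) and *Rtp4* (0.838), none of which passed the criteria in any comparison. *Oas3* (-0.043), *Irf1* (0.076) and *Isg20* (0.126) did not follow them. *Ifi205*, with the clearest group difference, was loosely tied to the rest (0.322). Kupffer cell and macrophage markers (median 0.452 over 91 pairs) and sinusoidal endothelial markers (0.422 over 45 pairs) were as closely tied among themselves, while genes induced by interferon gamma (0.18) and other genes induced by type I interferon (0.161) were less so.

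**Figure D5:**
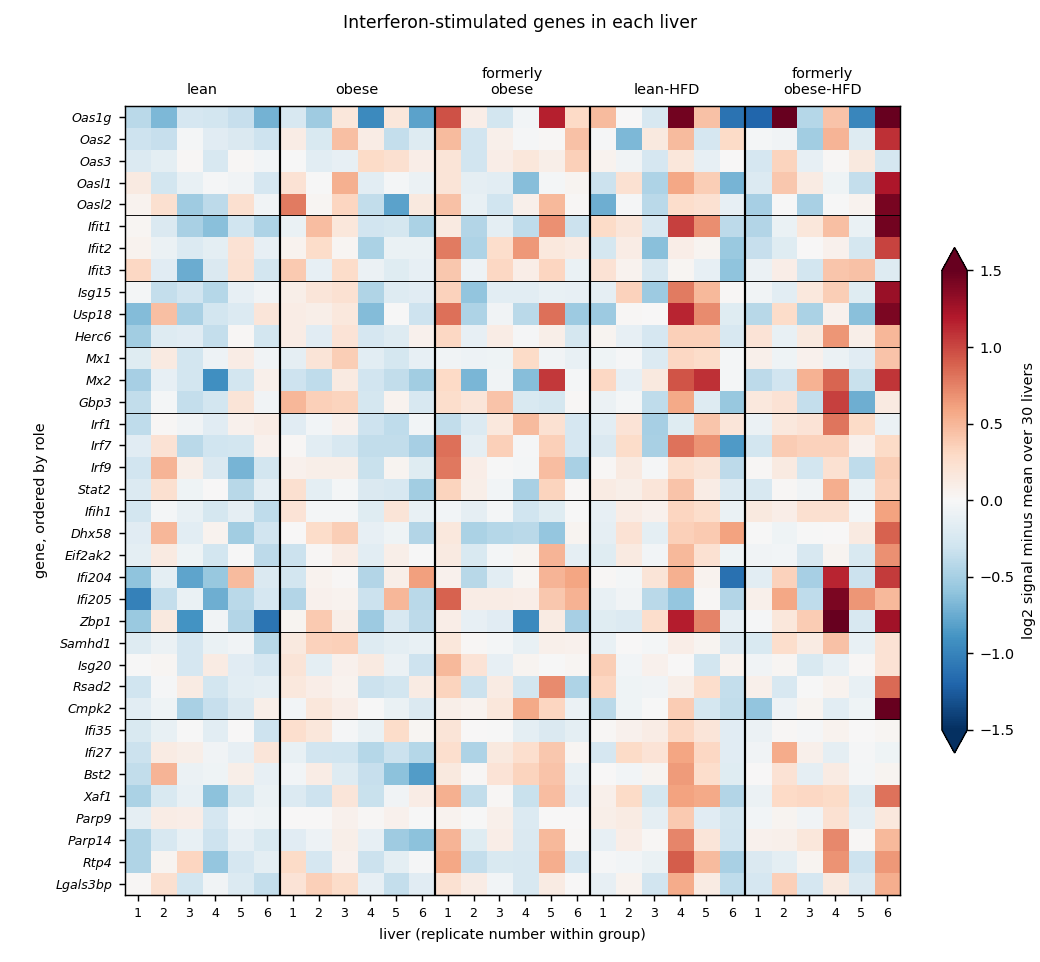
Log2 signal minus the mean over 30 livers (colour, cut at 1.5 in either direction) for the 36 measured members (y axis, ordered by role, with lines between roles) in each liver (x axis, replicate number within group). Columns of a single colour are livers in which most members were high or low together, such as lean-HFD replicate 4 and formerly obese-HFD replicate 6.

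Markers of other cell types did not track these livers in a single way. The mean deviation of the 14 Kupffer cell and macrophage markers was 0.758 in formerly obese replicate 1, 0.472 in formerly obese replicate 5 and 0.557 in formerly obese-HFD replicate 4, but -0.327 in formerly obese-HFD replicate 6 and -0.212 in lean-HFD replicate 4. The 9 measured markers of plasmacytoid dendritic cells, the specialised producers of type I interferon, stood at 0.761 in formerly obese-HFD replicate 6 and between -0.190 and 0.084 in the other 4 livers. Their defining member *Siglech* was 4.0 in that liver and 3.60 to 4.10 in the other formerly obese-HFD livers, and their summed level of 1120 there came with *Ly6d* at 9.91. Monocyte and dendritic cell markers were at 0.560 in the same liver. Stellate cell and cholangiocyte markers were also high there, at 0.507 and 0.751. Their part in the members' levels was not tested.

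Of 31 measured genes induced by interferon gamma, a list outside the set, 3 (9.68%) passed on the higher side in obese vs lean livers, compared with 1.14% of all probe sets. The median over this list was 0.09 with 23 of 31 above 0, beside 0.11 and 30 of 36 for the interferon-stimulated genes, and the difference between both lists was not tested. *Psmb9*, an immunoproteasome subunit, was 7.47 to 8.07 in lean and 8.20 to 8.50 in obese livers (log2 difference 0.54, SE 0.102, limma *P*=0.000135, adjusted *P*=0.114, exact permutation *P*=0.00216). Lean and obese livers did not overlap for it, as for 0.875% of all genes. *Gbp10*, a guanylate-binding protein, was 6.66 to 7.14 in lean and 7.02 to 8.06 in obese livers (0.59, SE 0.155, limma *P*=0.00224, exact permutation *P*=0.00866). *Psmb8*, another immunoproteasome subunit, also passed (0.31, SE 0.0963, limma *P*=0.0063, exact permutation *P*=0.00649), though not without lean replicate 1, 4, 5 or 6 or obese replicate 2, 3 or 4 (*P* at most 0.0161). Both *Gbp10* and *Psmb9* were lower in formerly obese vs obese livers, by -0.70 (SE 0.165, limma *P*=0.000907) and -0.30 (SE 0.0879, limma *P*=0.00412), each with an exact permutation *P* of 0.00649, the latter losing the criteria without formerly obese replicate 1 or 6 or obese replicate 2 (*P* at most 0.0111). The obese livers are shared by both comparisons, so the higher and lower values are not independent. Formerly obese livers differed from lean by -0.115 for *Gbp10* and 0.236 for *Psmb9*. *Gbp10* lost the criteria in both comparisons with obese livers, and *Psmb9* against formerly obese, when all 30 livers shared a single fit.

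*Cxcl9*, a chemokine induced by interferon gamma that attracts T cells, was 6.37 to 7.64 in lean-HFD and 7.44 to 8.78 in formerly obese-HFD livers, with 6 of 6 of the latter above the lean-HFD mean (log2 difference 1.05, SE 0.289, limma *P*=0.003, adjusted *P*=0.864, exact permutation *P*=0.0152). Refeeding moved *Cxcl9* by -0.50 in lean and by 0.16 in formerly obese mice, and formerly obese differed from lean livers by 0.39. The difference of 1.05 thus includes a lower signal in lean-HFD than in lean livers. The mean deviation of the interferon gamma list was 0.663 in formerly obese-HFD replicate 4, where *Gbp10* reached 9.18, and 0.147 in replicate 6, the highest liver for the interferon-stimulated set.

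Of 44 other genes induced by type I interferon, 1, 2, 1 and 1 passed on the higher side in obese vs lean, formerly obese vs lean, formerly obese vs obese and lean-HFD vs lean livers, and 0 in the other 3 comparisons. These are 2.27%, 4.55%, 2.27% and 2.27% of the list, compared with 1.14%, 0.554%, 1.15% and 0.692% of all probe sets on the same side, and a share of 2.27% is a single gene. *Apol9b*, an apolipoprotein L gene, was 6.73 to 7.60 in lean and 7.43 to 8.43 in lean-HFD livers (0.84, SE 0.193, limma *P*=0.000759, exact permutation *P*=0.00433). *Ifitm2*, which blocks viral entry, was 9.92 to 10.20 in obese and 10.27 to 10.65 in formerly obese livers (0.34, SE 0.0884, limma *P*=0.00221, exact permutation *P*=0.00216). Obese and formerly obese livers did not overlap for it, as for 1.1% of all genes. *Phf11d* was 2.57 to 3.20 in lean and 3.09 to 3.31 in formerly obese mice (log2 difference 0.31, SE 0.1, limma *P*=0.00905, exact permutation *P*=0.00433), a call that was lost without 9 of the 12 livers in turn (*P* at most 0.0207) and with all 30 livers in a single fit.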

How the data were processed

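The authors deposited log2 values made with RMA in Affymetrix Expression Console 1.4.1.46, 1 value per probe set and array, for 41345 probe sets (values 1.244 to 13.662). The sources used here give no genome build for the probe annotation. The platform annotation gave 23521 probe sets a single symbol, 1820 several and 16004 none, and probe sets with several symbols were kept apart. The members and gene lists were chosen with earlier results of these data known. Groups came from the sample labels. The labels do not say whether livers shared a batch. Limma *P* values weigh a group difference against the spread between the 6 mice of each group, moderated over all probe sets.

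Comparisons were fitted with limma 3.58.1 in R 4.3.3 (lmFit and eBayes) on the livers of the groups compared, and adjusted by Benjamini-Hochberg over all probe sets. Criteria combined a *P* of less than 0.01 with linear averages that differed by a ratio over 1.2, the higher of them being over 8. Exact permutation tests, summaries and motif searches used Python 3.11.15, NumPy 2.4.6 and pandas 2.3.3, and figures Matplotlib 3.10.9. Genes named in the text were members past the criteria, the members with the largest differences of each role, fixed pathway genes, and up to 4 genes past the criteria from each other pathway list. Other members were added to account for the list. The fit was tested on simulated data. Alternatives were a single fit of all livers, an intensity trend with robust prior, array weights, median-centred arrays, filters on the average at 8 and 16, the FDR of 10%, fold changes from log2 means, gene values averaged over probe sets, a replicate block and leaving out each liver. The depth of an array has no read count, so the number of livers sets the precision.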

Additional observations from a re-analysis of the deposited data

Results flagged for a closer look

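In 6 of 105 groups of 6 livers examined, the highest liver stood apart from the rest by a Dixon ratio (its gap to the next liver over the range of the group) above its 95% critical value, and chance alone flags about 5% of groups. Formerly obese-HFD replicate 6 gave 3 of them. *Cmpk2* was 5.95 there and at most 4.25 in the other livers of the group (ratio 0.726), *Dhx58* 5.49 and at most 4.74 (0.789), and *Isg15* 6.21 and at most 5.28 (0.629). *Ifi27* in formerly obese-HFD replicate 2 was 10.46 with the next liver at 9.98 (0.692), and *Mx2* in obese replicate 3 was 4.76 with the next at 4.35 (0.632). *Mx1* in formerly obese replicate 4 was 2.80 with the next at 2.46 (0.853), in a gene below the average of 8 in every group.

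For the probe set shared by *Trex1* and *Atrip*, the interaction of history and 48 h of HFD passed the criteria but not the FDR. It uses the same formerly obese livers as the difference from lean described before. The interaction was -0.63 on the log2 scale (-0.632, SE 0.194, limma adjusted *P*=0.88), with a difference of -0.51 in formerly obese mice, where 6 of 6 refed livers lay below the formerly obese mean, and of 0.12 in lean mice, where 4 of 6 lay above the lean mean.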

How the results depend on the processing

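Of 259 values recomputed under most settings, none changed direction past a threshold, and array weights or fold changes from log2 means changed no call. Under the FDR of 10% the members called went from 3 to 0 in formerly obese vs lean, from 2 to 0 in formerly obese vs obese, and from 1 to 0 in each of the 3 refed comparisons. With all 30 livers in a single fit, 1 member (*Ifi205*) was called in formerly obese vs lean, and *Ifih1* in place of *Mx2* in lean-HFD vs lean. The intensity trend and gene values averaged over probe sets each called 1 member (*Ifi27*, lower) in obese vs lean, and the latter called 3 (*Ifit1*, *Mx2* and *Zbp1*) in lean-HFD vs lean. Each of these members has 1 probe set, so the averaging left its own values unchanged. Median-centred arrays called 0 in formerly obese-HFD vs formerly obese. The cause was not tested.

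Leaving out single livers gave 0 to 1 members called in obese vs lean, 2 to 7 in formerly obese vs lean, 0 to 3 in formerly obese vs obese, 0 to 6 in lean-HFD vs lean and 0 to 1 in formerly obese-HFD vs formerly obese and vs lean-HFD. The members' median ranged from 0.084 to 0.170 in obese vs lean, 0.122 to 0.240 in formerly obese vs lean, 0.027 to 0.146 in formerly obese vs obese, 0.133 to 0.250 in lean-HFD vs lean, -0.008 to 0.112 in formerly obese-HFD vs formerly obese, -0.049 to 0.176 in formerly obese-HFD vs lean-HFD and -0.214 to -0.051 in the interaction.

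Same-numbered livers did not clearly deviate together (correlations -0.115 to 0.127, with 5 of 30 livers closest to their own number). The numbers thus gave no sign of pairing, though a weak shared effect could be missed this way. With a replicate block the members called were 0 in obese vs lean, 2 in formerly obese vs lean (*Oas1g* and *Ifi205*), 2 in formerly obese vs obese (*Oas1g* and *Irf7*), 1 in lean-HFD vs lean (*Zbp1*), 1 in formerly obese-HFD vs formerly obese (*Ifih1*), 0 in formerly obese-HFD vs lean-HFD and 0 in the interaction. Members with low signal, such as *Mx1*, are limited by their distance from background.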

Other observations

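*Ly6d*, a surface protein of B-cell and plasmacytoid precursors, was 9.91 in formerly obese-HFD replicate 6, the liver with the highest interferon-stimulated signal, and 4.53 to 6.39 in the other livers of that group. It reached 8.72 in obese livers, where the mean deviation of the interferon-stimulated genes was at most 0.12. *Ccr2*, a monocyte chemokine receptor, was 5.84 in formerly obese-HFD replicate 6 and 3.47 to 4.38 in the others. These genes were chosen after their values were seen.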
